A study of Mus musculus with 6 samples.

Results

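The 81 genes described here, which RefSeq annotates as protein-coding, are genes with well-counted RNA that was higher when Themis was deleted. They were chosen by deposited read counts, as those of the 854 genes in the deposited table whose mean read count over the 3 conditional knockout (cKO) libraries was at least 100 and at least 2 times the mean over the 3 wild-type (WT) libraries, without scaling. Both thresholds were passed by 107 genes, of which 26 were set aside by name. These were NK-type receptors and their adaptors, ion channels and transporters, chemokine and homing receptors, members of the Ly6 and interferon-induced families, the transcription factors Tcf7 and Klf2, the granzyme Gzmm, the integrin chain Itgae and the actin-binding Actn1. The counts of this same contrast chose the genes, so their direction and fold are given as a description and support nothing. Themis, found mainly in T cells, takes part in signalling from the antigen receptor. OT-I cells are CD8 T cells with a transgenic receptor for a peptide of ovalbumin.

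Total RNA was sequenced from naive OT-I cells of mouse spleen and lymph nodes after culture with the cytokine IL-2 at 1 µg/ml for 3 days. The WT group was OT-I with wild-type Themis, and the Themis cKO group was OT-I with a conditional deletion of that gene. Both groups shared the transgenic receptor and the IL-2 culture. The labels name neither the Cre driver nor the age of the mice, nor do they say whether the 3 replicates came from separate mice or cultures, so each p-value refers to variation among libraries that could be technical. Themis itself had 5212, 5882 and 5171 counts in WT replicates 1 to 3 and 970, 1247 and 1204 in cKO replicates 1 to 3. None of 14 listed CD8 T-cell markers was among the 854, so the cell type was not checked against them here.

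Resting CD8 T cells circulate between blood and lymphoid organs by means of integrins and chemokine receptors, and keep a programme of quiescence factors that antigen receptor signalling takes down. Adaptor proteins at the membrane set the threshold of that signalling by recruiting kinases and phosphatases. IL-2 supports growth and survival, and cells cultured in it can shift their adhesion, cytoskeleton and secretion programmes.

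Summed over the 81 genes, WT replicates 1 to 3 had 20028, 22240 and 16770 counts. The sums were 52877, 59684 and 60978 in cKO replicates 1 to 3. The genes thus made up 1.59 to 2.19% of the table's counts in WT and 12.5 to 14.3% in cKO, where counts of most other genes were lower. The ratio of mean counts ran from 2.09 to 27.2 with a median of 2.56. It was under 3 for 58 genes, at least 4 for 12 and at least 5 for 6. In every one of the 81 genes the lowest cKO library lay above the highest WT library, and the smallest margin was 1.26-fold, in Sulf2. Over the 794 genes tested, 23.8% showed such separation with cKO higher. All 81 passed an adjusted p of 0.05 (edgeR quasi-likelihood test, Benjamini-Hochberg), beside 24.2% of the 794 called higher in cKO and 75.8% called lower. With libraries scaled to a common centre of the table (TMM), 226 of 788 were called higher and 213 lower. Nothing is read from either share, because the rule used the contrast. The median log2 fold change was 1.35 over the 81 genes, 1.55 over the other 111 tested genes that were higher, and -1.34 over all 794. Such scaling raised the median of all genes by 1.31 (log2), which changed no member's direction. In RNA from whole cultures, more cells of a type and more RNA per cell cannot be told apart.

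**Figure D1:**
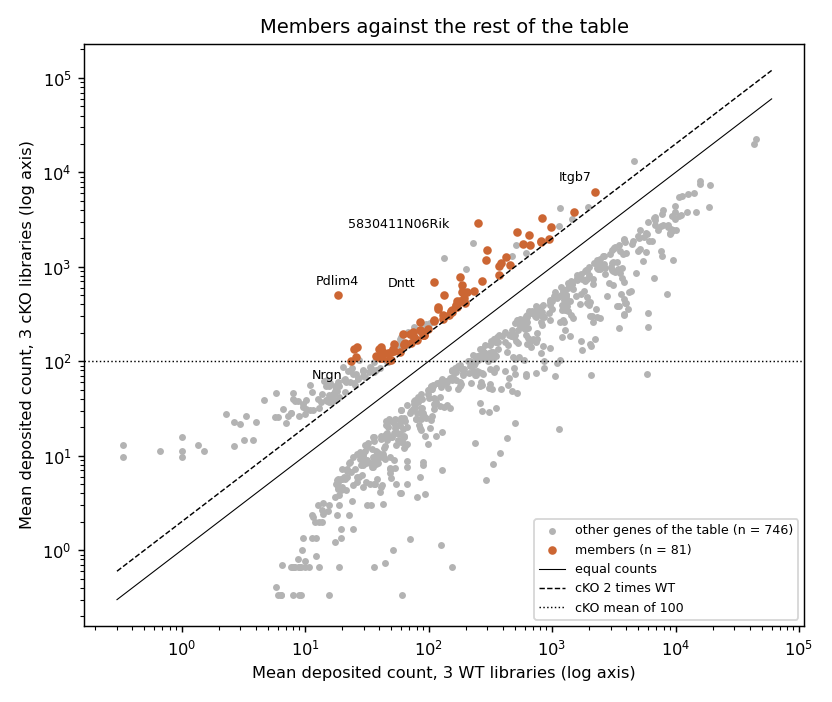
Mean deposited count over 3 cKO libraries (vertical) against 3 WT libraries (horizontal), both on log axes, for each gene of the table with a mean above 0 in both genotypes. The 81 members (orange) lie above the dashed line of a 2-fold ratio and the dotted line of a cKO mean of 100, and among the members Pdlim4 stands farthest from the line of equal counts.

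At the edge of the level threshold, Nrgn lay on the limit, and Rps6ka2 (cKO mean 102) and Spsb1 (104) were next inside. Clnk (99.3), Cyp2s1 (98.7) and Pgap1 (97.7) were outside with ratios of 2.11, 2.13 and 2.69. Within the table the ratio threshold had no close neighbours. The members nearest to it were Unc5a, Vipr1 and Fry at 2.09, 2.09 and 2.10, and the next genes below it with a cKO mean of at least 100 stood at 0.52. The table holds no such gene between these ratios, and near misses that it leaves out cannot be seen here.

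Levels were compared between genes only as counts per kilobase of annotated exon, which was available for 80 of the 81. On that scale S100a4 was highest in cKO at 3743 counts per kb, followed by Itgb7 (2251), S100a6 (1944), Cd7 (1330) and Igfbp4 (749). The lowest were Gas7, Rps6ka2 and Fry at 9.99 to 10.3 counts per kb. The median was 89.0 counts per kb in cKO and 34.0 in WT. The median exon length, 3914 bases, was close to the 3944 of all tested genes.

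The stretches before the gene starts were read for 61 of the 81 genes, from RefSeq windows on GRCm38.p6 of 250 bases before to 50 bases after a start. On either strand 6 short motifs were searched, none of which contains another. A gene counted as a match where any of its windows held the motif, and windows per gene were not compared between the sets. The KLF/SP core CACCC, bound by Krüppel-like and SP factors, was in the windows of 52 of 61 members, or 85.2%. It was in the windows of 65.9% of 91 other genes higher in cKO, 70.1% of 495 genes lower in cKO and 59.8% of all 27025 genes. The members' windows were also richer in G and C, with a median of 64.3% against 56.0% for the other higher genes, 58.0% for the lower genes and 52.8% for all genes. Genes were then split by the mean G or C share of their windows, without the other higher genes. At 60% or more, CACCC was in any window of 91.2% of 34 members, 76.0% of 217 lower genes and 72.5% of 7795 genes. Below 60% the shares were 77.8% of 27, 65.5% of 278 and 54.7% of 19230. All members are protein-coding, while the 27025 genes exceed the 21896 protein-coding genes of RefSeq, so the sets differ in kind. The shares are of letter matches and not of binding sites.

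Of the other 5 motifs, 4 were less frequent in the members than in all genes. The TCF/LEF core (CTTTGA or CTTTGT) was in 14 of 61 members, 35.2% of the other higher genes and 34.5% of all genes. The RUNX core TGTGGT was in 9.84% and 18.9%, the STAT core TTCNNNGAA in 3.28% and 9.55%, and the AP-1 core TGANTCA in 4.92% and 8.97%. The core of the interferon-stimulated response element, bound by interferon-regulatory factors, was in 4 members (6.56%) and 3.99% of all genes. It was in 13.9% of the genes lower in cKO.

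The 250 bases before the start are shown for Klf3, itself a Krüppel-like factor, for the 2 genes with the largest ratios, Pdlim4 and 5830411N06Rik, and for the adjacent pair S100a4 and S100a6, where only the first holds the motif in this stretch. They read 5′ to 3′ on the gene's strand, and capitals mark CACCC or its reverse complement GGGTG. The Klf3 stretch is chr5:64803271-64803520 (plus strand), with 2 matches as CACCC and 3 as GGGTG. Pdlim4 is chr11:54069018-54069267 (minus strand), with 2 as GGGTG. 5830411N06Rik is chr7:140247051-140247300 (plus strand), the first of its 3 windows, with 1 and 2. S100a4 is chr3:90603520-90603769 (plus strand), with 1 and 1, and S100a6 is chr3:90612644-90612893 (plus strand), with 0 of either.
Klf3: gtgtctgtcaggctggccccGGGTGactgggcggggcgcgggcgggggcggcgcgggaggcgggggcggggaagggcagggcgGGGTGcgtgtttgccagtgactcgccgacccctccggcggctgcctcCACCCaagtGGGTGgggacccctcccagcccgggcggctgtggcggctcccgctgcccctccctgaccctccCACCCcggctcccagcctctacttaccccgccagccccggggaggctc
Pdlim4: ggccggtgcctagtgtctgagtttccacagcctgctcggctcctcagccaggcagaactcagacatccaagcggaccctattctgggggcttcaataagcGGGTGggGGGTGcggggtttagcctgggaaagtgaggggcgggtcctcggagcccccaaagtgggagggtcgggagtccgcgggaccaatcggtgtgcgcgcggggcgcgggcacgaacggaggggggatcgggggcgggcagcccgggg
5830411N06Rik: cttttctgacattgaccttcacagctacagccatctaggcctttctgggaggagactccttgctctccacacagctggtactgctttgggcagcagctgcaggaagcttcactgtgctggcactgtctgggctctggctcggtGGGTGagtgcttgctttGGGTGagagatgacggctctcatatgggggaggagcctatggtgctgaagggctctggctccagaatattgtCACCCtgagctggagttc
S100a4: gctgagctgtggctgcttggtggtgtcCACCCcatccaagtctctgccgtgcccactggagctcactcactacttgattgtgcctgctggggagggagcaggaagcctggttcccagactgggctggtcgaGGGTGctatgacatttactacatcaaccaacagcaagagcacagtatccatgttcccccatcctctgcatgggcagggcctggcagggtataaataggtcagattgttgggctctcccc
S100a6: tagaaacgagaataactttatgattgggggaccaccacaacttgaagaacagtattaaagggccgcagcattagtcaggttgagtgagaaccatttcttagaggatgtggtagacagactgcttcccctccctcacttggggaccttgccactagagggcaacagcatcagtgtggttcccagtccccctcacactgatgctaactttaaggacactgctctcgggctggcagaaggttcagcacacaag

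The integrin and adhesion genes numbered 4. Itgb7, the beta chain of the alpha4beta7 and CD103 integrins that guide lymphocytes to the gut and hold them in epithelium, had 2242, 2687 and 1765 counts in WT and 5947, 6604 and 6157 in cKO. All 3 cKO libraries were more than 2-fold above the highest WT library, and the log2 fold change was 1.48 with a standard error (SE) of 0.14. Its partner Itga4, the alpha4 chain, had 962, 1078 and 773 counts in WT and 1840, 1848 and 2229 in cKO. That is 2.10-fold higher (log2 1.07, SE 0.15), near the ratio limit. The other Itgb7 partner, Itgae, which the rule sets aside by name, had means of 133 and 1233 counts. Amigo2, a leucine-rich adhesion protein, had 144, 217 and 195 counts in WT and 543, 595 and 786 in cKO (log2 1.80, SE 0.19).

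Itgax, the CD11c integrin chain, had 69.9, 48.2 and 73.9 counts in WT and 225, 140 and 101 in cKO. Its cKO libraries were spread, with replicate 1 more than 2-fold above replicate 3. Without cKO replicate 1 its log2 fold change was 0.90 against 1.28 with all 6. CD11c marks dendritic cells, and activated CD8 T cells can express it too.

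Of the 11 genes for actin, microtubule, septin and nuclear-envelope proteins, Pdlim4 had the largest ratio of all 81 members. This PDZ and LIM domain protein binds alpha-actinin. It had 12, 29 and 14 counts in WT and 373, 601 and 524 in cKO, 27.2-fold higher (log2 4.76, SE 0.30). Without WT replicate 2, which had the highest WT count, the log2 value was 5.24. Actn2, an alpha-actinin best known from muscle, had 44.3, 57.8 and 24.7 counts in WT and 110, 124 and 109 in cKO. Of 23 listed PDZ-LIM, LIM and alpha-actinin genes, Actn2, Pdlim4 and Actn1 were the 3 present in the table. Each was called higher, beside 24.2% of all 794 genes tested. All 3 passed both thresholds of the rule, which fixed their direction, so nothing is read from this count. Smtn, the actin-binding smoothelin, Myo6, a myosin that walks toward the minus end of actin, and Lmna, which encodes lamins A and C, had ratios of 2.27, 2.56 and 2.41. Lmna had 197, 138 and 200 counts in WT and 390, 412 and 490 in cKO. The kinesin gene Kifc2 had 22.4, 29.7 and 24.8 counts in WT and 115, 102 and 117 in cKO, 4.34-fold higher. Mid1, a microtubule-associated ubiquitin ligase, had 545, 674 and 532 counts in WT and 1522, 1413 and 2297 in cKO, with cKO replicate 3 well above the other two. The other members were Rflnb, a filamin regulator, the septin Sept8, Gas7 and Fry, with ratios of 2.10 to 3.01.

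Calcium and calmodulin-binding proteins had 4 members. S100a6, a small EF-hand protein, had 1079, 1040 and 805 counts in WT and 2535, 2802 and 2636 in cKO (log2 1.44, SE 0.14). S100a4, a related protein linked to cell motility, had 701, 757 and 510 in WT and 1550, 2491 and 2516 in cKO (log2 1.73, SE 0.22). In both genes WT replicate 3 was lowest, while cKO replicate 1 stood apart only for S100a4. An annotated gene on the same strand, Gm42674, covers 51.7% of the exon length of S100a4. Nrgn, the calmodulin-binding protein neurogranin, had 20, 23 and 28 counts in WT and 110, 101 and 89 in cKO (log2 2.08, SE 0.21). Tesc, the EF-hand protein tescalcin, had means of 61.7 and 194.

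Immune receptors and membrane adaptors formed the largest group, with 12 members and ratios of 2.12 to 11.5. Pag1, the adaptor that brings the kinase Csk to lipid rafts, had 1615, 1774 and 1164 counts in WT and 3521, 3687 and 4313 in cKO (log2 1.33, SE 0.17). Sit1, an adaptor that restrains receptor signalling, had 379, 421 and 326 in WT and 850, 785 and 798 in cKO (log2 1.11, SE 0.14). Prr7, a transmembrane adaptor of T cells, had 191, 179 and 130 in WT and 420, 374 and 391 in cKO. In the 3 adaptors each cKO library was at least 1.86-fold above each WT library, beside a median margin of 1.98-fold over the 81 members. Cd7, an immunoglobulin-family receptor of T and NK cells, had 294, 348 and 242 counts in WT and 1273, 1551 and 1696 in cKO. Its ratio of 5.11 was the sixth largest among the 81.

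Tlr1, a Toll-like receptor for bacterial lipopeptides, averaged 272 ± 26.1 (SD, n = 3) counts in WT, against 709 ± 90.8 (SD, n = 3) in cKO. Cd1d1, which presents lipids to NKT cells, had 51, 53 and 53 counts in WT and 151, 117 and 121 in cKO. Cd200r1, an inhibitory receptor, Fcgrt, the neonatal Fc receptor, and Plaur, the urokinase receptor, had ratios of 2.12, 2.23 and 2.40.

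The scavenger-receptor genes 5830411N06Rik and Cd163l1, which are known as markers of gamma-delta T cells, varied most between the cKO libraries. 5830411N06Rik had 299, 219 and 240 counts in WT and 1709, 4552 and 2473 in cKO, 11.5-fold higher (log2 3.51, SE 0.33). Cd163l1 had 183, 173 and 187 in WT and 437, 1385 and 515 in cKO (log2 2.10, SE 0.38). Both were highest in cKO replicate 2. Without it their log2 fold changes were 3.05 and 1.41, the latter a fold 0.620 times the value with all 6 libraries. Every cKO library still exceeded every WT library.

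Markers of other cell types moved beside these genes. The rule fixed the direction of those that are members, and 24.2% of all 794 genes tested were called higher. The table held 4 of 15 gamma-delta T-cell markers on a list, among them both scavenger-receptor genes, and the 4 were called higher. Their summed counts ran from 422 to 536 in WT and from 2222 to 6105 in cKO. Most of each sum came from both scavenger-receptor genes, members whose direction the rule fixed. Of the other pair, Sox13 was also highest in cKO replicate 2 (60, 128 and 65 counts), and Blk was not (16, 40 and 59). Among B-cell markers, Cd79b, Ms4a1 and Bank1 were each called higher. The member among them, Cd79b, a chain of the B-cell receptor, had 39, 40 and 47 counts in WT and 67, 115 and 141 in cKO. In cKO it was lowest in replicate 1 and highest in replicate 3, as was Ms4a1 (16, 60 and 87), while Bank1 was lowest in replicate 2 (79.9, 62 and 94). Of 13 NK-cell markers other than those the rule sets aside, 3 were present (Cd7, Fcgr3 and Khdc1a), each called higher, with sums of 268 to 366 in WT and 1387 to 1770 in cKO. Most of each sum came from Cd7, a member whose direction the rule fixed. Another 8 NK-type genes passed both thresholds and were set aside by name, Ncr1, Tyrobp, Fcer1g, Klrb1c, Klrb1f, Klri2, Klra8 and Klra9, with ratios of 2.18 to 3.06. Reads of the closely related Klra genes can be split between them, which makes these values uncertain. Of 21 myeloid and dendritic markers 3 were in the table, of which Itgax was higher and Mpeg1 and Batf3 lower, and their sum was 421 to 553 counts in WT and 166 to 277 in cKO. None of these markers in the table was at 0 in any library, and the lists' other genes were not analysed here. The part of other cell types in these values was not tested.

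**Figure D2:**
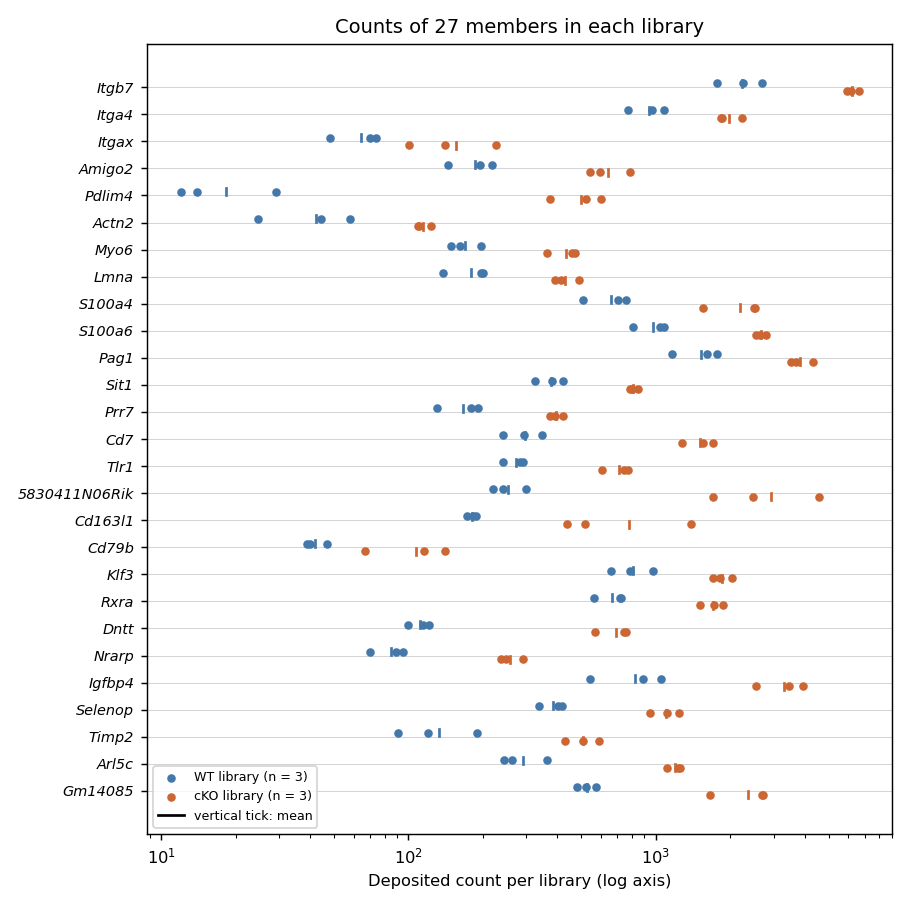
Deposited counts (log axis) of 27 members in each of the 3 WT (blue) and 3 cKO (orange) libraries, with a vertical tick at each mean. No orange point reaches the blue points of its gene, and 5830411N06Rik and Cd163l1 show the widest spread among their cKO libraries.

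The G-protein-coupled and guidance-type receptors were a group of 5 with small ratios, 2.09 to 2.40. Vipr1, the receptor for vasoactive intestinal peptide, had 178, 227 and 183 counts in WT and 384, 377 and 469 in cKO. Ramp1, which pairs with the calcitonin receptor-like receptor, had 56.5, 60.9 and 73.0 in WT and 154, 147 and 156 in cKO. Gpr34, a receptor for lysophosphatidylserine, and Unc5a, a netrin receptor, had ratios of 2.38 and 2.09. Of 31 listed axon-guidance type genes the table held 4, with Unc5a higher and Epha2, Ephb2 and Plxnb2 lower, of which Ephb2 turned higher with TMM or DESeq2 size factors. The rule fixed the direction of Unc5a, and 24.2% of all 794 genes tested were called higher and 75.8% lower.

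Transcription factors and a DNA-acting enzyme followed. Dntt, the terminal transferase that adds bases at antigen-receptor gene junctions in developing lymphocytes, had 100, 121 and 114 counts in WT and 757, 569 and 746 in cKO. Its 6.19-fold ratio (log2 2.63, SE 0.16) was the third largest of the 81. Klf3, a Krüppel-like repressor, had 790, 978 and 662 in WT and 1700, 1821 and 2031 in cKO (log2 1.19, SE 0.15). Rxra, the retinoid X receptor alpha, had 722, 715 and 561 in WT and 1513, 1714 and 1870 in cKO (log2 1.35, SE 0.15). Snai3, a Snail-family repressor, Nacc2, a BTB-domain corepressor, and Meis3, a homeobox factor, had ratios of 3.17, 3.02 and 2.15. A list of 43 naive, memory and quiescence genes left out those that the rule sets aside, and the table held 5 of it. Klf3 and Ramp1 were called higher, and Txnip, Ly6c2 and Themis lower, but Txnip and Ly6c2 turned higher with TMM or DESeq2 size factors. Tcf7, S1pr1 and Klf2, genes of the same programme set aside by name, had log2 fold changes of 1.53, 1.88 and 1.15. They passed both thresholds of the rule, which fixed their direction, as it did for Klf3 and Ramp1. Of all 794 genes tested, 24.2% were called higher and 75.8% lower, and nothing is read from these counts.

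Modulators of signalling were represented by 9 genes with ratios of 2.10 to 3.04. Nrarp, a Notch-induced inhibitor of Notch signalling, had 89, 95 and 70 counts in WT and 290, 247 and 236 in cKO (log2 1.60, SE 0.18). The table held 5 of 23 listed Notch pathway genes, of which Nrarp alone was called higher. The ligands Dll1 and Jag2, the receptor Notch3 and the regulator Dtx4 were called lower, of which Jag2 turned higher with TMM or DESeq2 size factors. Of all 794 genes tested, 24.2% were called higher and 75.8% lower. The rule fixed the direction of Nrarp, so nothing is read from these counts. Dll1 had a mean of 59 counts in WT and 4 in cKO, and Jag2 had 127 and 61.3. An annotated gene on the opposite strand, Gm38287, covers 79.4% of the exon length of Nrarp. Ldlrad4, which limits TGF-beta signalling by acting on SMAD proteins, had 107, 121 and 107 in WT and 249, 290 and 287 in cKO, and 52.1% of its exon length lies opposite Fam210a. No gene of the TGF-beta list was in the table. The sources used here do not say whether counting used strand, so reads of such overlapping genes cannot be told apart. The remaining signalling genes were Samd3, Tnfaip8l1, Card19, a CARD-domain protein that restrains NF-kappaB signalling, the kinases Dyrk4 and Rps6ka2, and Spsb1, a substrate receptor of ubiquitin ligases, with ratios of 2.10 to 2.36. Fam129b, an adherens junction protein also called Niban2, had 184, 188 and 185 counts in WT and 473, 489 and 648 in cKO.

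Genes for secreted proteins and for matrix or peptide processing numbered 10. Igfbp4, a binding protein of insulin-like growth factors, had 891, 1048 and 541 counts in WT and 2546, 3924 and 3452 in cKO (log2 1.99, SE 0.24). Timp2, an inhibitor of matrix metalloproteinases, had 120, 189 and 91 in WT and 430, 589 and 510 in cKO (log2 1.93, SE 0.25). In both, WT replicate 3 was lowest and cKO replicate 2 highest. Selenop, a selenium-carrying plasma protein, had 416, 402 and 337 in WT and 1108, 945 and 1243 in cKO. Pcsk1, a prohormone convertase, had 21, 20 and 34 in WT and 106, 165 and 137 in cKO, 5.44-fold higher. The extracellular sulfatase Sulf2 was the least separated of the 81, with 61, 49 and 114 counts in WT and 264, 201 and 144 in cKO. Adamts14, a procollagen protease, had 60.9, 40.6 and 52.2 in WT and 186, 136 and 80.4 in cKO. Sulf2, Adamts14 and Itgax had cKO replicate 1 highest and replicate 3 lowest, as did other members, among them Gas7, Nrgn and Nqo1. Pros1, the anticoagulant protein S, Vash1, a tubulin-detyrosinating enzyme, C1qtnf1 and Cpm, a membrane carboxypeptidase, had ratios of 2.33 to 2.70.

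Vesicle traffic contributed Arl5c, Rab11fip4, Rab37 and Vamp1. Arl5c, an ARF-like GTPase, had 263, 363 and 244 counts in WT and 1229, 1108 and 1247 in cKO (log2 2.04, SE 0.16). Rab11fip4, an effector of recycling-endosome RAB11, had 445, 462 and 363 counts in WT and 1147, 1188 and 1472 in cKO. Rab37, a secretory GTPase, and the SNARE Vamp1 had ratios of 2.36 and 2.75. Among metabolic and glycosylation enzymes, Galnt10, which starts O-linked glycans, had 853, 859 and 711 counts in WT and 1818, 1957 and 1873 in cKO, with the smallest SE of the 81 genes (log2 1.22, SE 0.12). St3gal1, the sialyltransferase that caps O-glycans, had 340, 478 and 298 in WT and 888, 1011 and 1193 in cKO. Nqo1, a quinone reductase, had 46, 45 and 33 in WT and 159, 133 and 129 in cKO. Acp5, the tartrate-resistant acid phosphatase, Ggt1, a glutathione-degrading enzyme, and Abhd15 had ratios of 2.31 to 2.40. Gm14085, listed by RefSeq as Slc28a2b and thus named for nucleoside transport, had 522, 573 and 480 in WT and 2719, 1662 and 2678 in cKO. It is a close copy of Slc28a2, so its count depends on how shared reads were assigned.

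The 9 members with other or less studied roles had ratios of 2.10 to 5.36. Spag1, a protein needed to assemble motile cilia, had 227, 189 and 198 counts in WT and 591, 472 and 544 in cKO (log2 1.38, SE 0.16). Susd3, Ttc28, Fndc10, the co-chaperone Dnajb14 and Mturn had ratios of 2.10 to 2.92. Lrrc75b, Stac2 and Gm38457 are described by their positions.

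The lists not yet named held few members. Among 36 cytotoxic and tissue-residency genes, Cd7, Itga4 and Itgb7 were called higher and Cd69, Cd101 and Ikzf2 lower, with Cd101 and Ikzf2 turning higher under TMM or DESeq2 size factors. Among 38 lipid-metabolism genes St3gal1 was called higher and Scd1, Lpin1, Fads2 and Plin2 lower, the last pair turning higher under those scalings. The higher genes of both lists are members, so the rule fixed their direction. These counts stand beside 24.2% of all 794 genes tested called higher and 75.8% called lower, and nothing is read from them. The lists of Wnt signalling, purine enzymes, MHC class II, CD4 and regulatory T cells, stromal cells and granulocytes held no member, and no gene of the lysosomal protease list was in the table.

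Several members lay beside each other in the genome. On GRCm38.p6, 16 of the 81 had another member within 200 kb, a distance chosen after the positions were seen. Any gene of the table that was higher in cKO lay that near to 24.7% of the 81 members, 19.8% of 121 other higher genes and 6.25% of 640 lower genes. A lower gene lay that near to 13 of the 81 members and 35.8% of lower genes. No test was made.

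On chromosome 11, Plxdc1 (97923237 to 97986669), Arl5c (97989575 to 97996285) and Stac2 (98036623 to 98053462) flanked Cacnb1 (98001508 to 98023034), a calcium-channel subunit set aside by name. All 4 were higher in cKO. Stac2 had 41, 48 and 36 counts in WT and 106, 123 and 157 in cKO, and Cacnb1 had 44, 87 and 46 and then 163, 175 and 179. The ratios of the 4, 2.16 for Plxdc1, 4.12 for Arl5c, 2.92 for Cacnb1 and 3.09 for Stac2, were unequal. On chromosome 7 Cd163l1 (140197218 to 140231145) and 5830411N06Rik (140247279 to 140300734) shared their cKO replicate 2 maximum. Olfr524 lies inside the span of Cd163l1 and had 18, 28 and 24 counts in WT and 49, 70 and 61 in cKO.

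On chromosome 5, Gm38457 (64802370 to 64809180) overlaps the start of Klf3 (64803521 to 64832901), and Tlr1 follows at 64924680 to 64933600. Gm38457 had 20.1, 31.8 and 27.4 counts in WT and 123, 172 and 130 in cKO. On chromosome 3, S100a4 (90603770 to 90606045) and S100a6 (90612894 to 90614414) are 6849 bases apart. Lrrc75b and Ggt1 on chromosome 10 are 396 bases apart, with Ggt5 3134 bases beyond Ggt1, and all 3 were higher in cKO. Susd3 and Card19 on chromosome 13 and Timp2 and C1qtnf1 on chromosome 11 complete the neighbouring members. Between Timp2 and C1qtnf1 lies Lgals3bp, which was called lower (log2 -0.97) but turned higher with TMM or DESeq2 size factors. Other genes lower in cKO lay near members too, among them P4ha2, 31892 bases from Pdlim4, and Hk3, which overlaps the span of Unc5a.

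**Figure D3:**
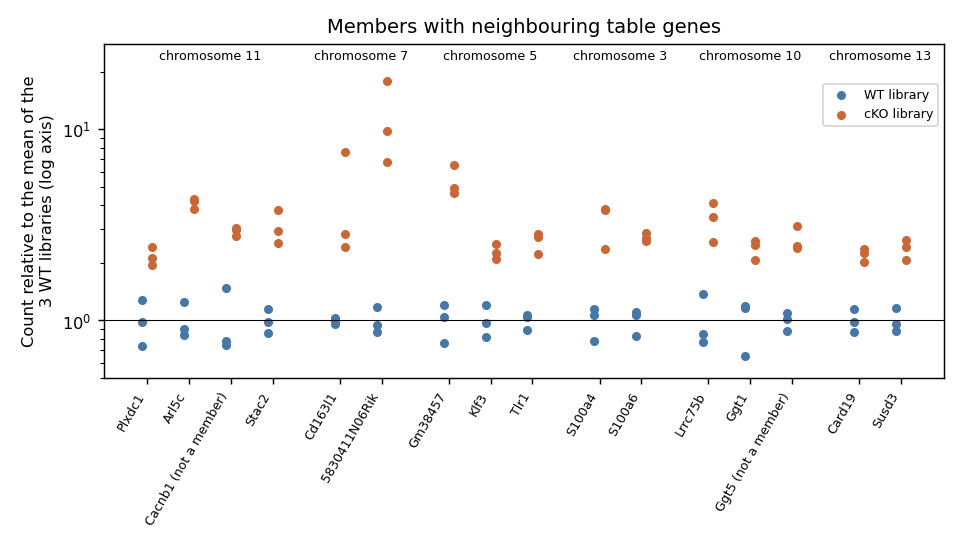
Count in each library relative to the mean of the 3 WT libraries (log axis) for chosen members and near table genes on 6 chromosomes, in chromosome order within each group. Only genes higher in cKO were drawn, and lower genes near members, such as Gstt1 near Ggt1, are not shown. All cKO points (orange) thus lie above all WT points (blue) of the same gene, and Cacnb1 and Ggt5 are not members.

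Chromosome 11 held 17 of the 81 members, or 21.0%. It held 6 of the 121 other higher genes (4.96%), 56 of the 640 lower genes (8.75%) and 1609 of the 21896 protein-coding genes of RefSeq (7.35%). With genes within 200 kb of each other counted as 1 locus, it held 14 of 72 member loci (19.4%) and 39 of 493 lower loci (7.91%). The 17 genes spread from Smtn at 3517522 to Cd7, which ends at 121039478, and also include Sept8, Pdlim4, Galnt10, Gas7, Rflnb, Abhd15, Rab11fip4, Igfbp4, Cd79b and Rab37. This is a description made after the positions were seen, and no test was made.

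The rule used group means, not the differences between WT libraries, and these libraries were not alike for the members. After scaling, 55 of the 81 members (67.9%) had their lowest WT count in replicate 3 and 42 (51.9%) their highest in replicate 2. Replicate 3 was the lowest for 46.8% of the 111 other tested genes that were higher and for 32.1% of the 602 that were lower. The median ratio of WT replicate 2 to replicate 3 was 1.30 over the members, 1.15 over the other higher genes and 0.976 over the lower genes. Igfbp4, Timp2, Ggt1 and Snai3 are examples. Ggt1 had 132, 129 and 72 counts in WT, and Snai3 had 136, 144 and 76. Within cKO, replicate 3 was highest for 37 members (45.7%) and lowest for 12 (14.8%). It was highest for 41.4% and lowest for 25.2% of the 111 other higher genes. For the 602 lower genes these shares were 31.9% and 34.9%. The cause of these library differences was not tested.

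**Figure D4:**
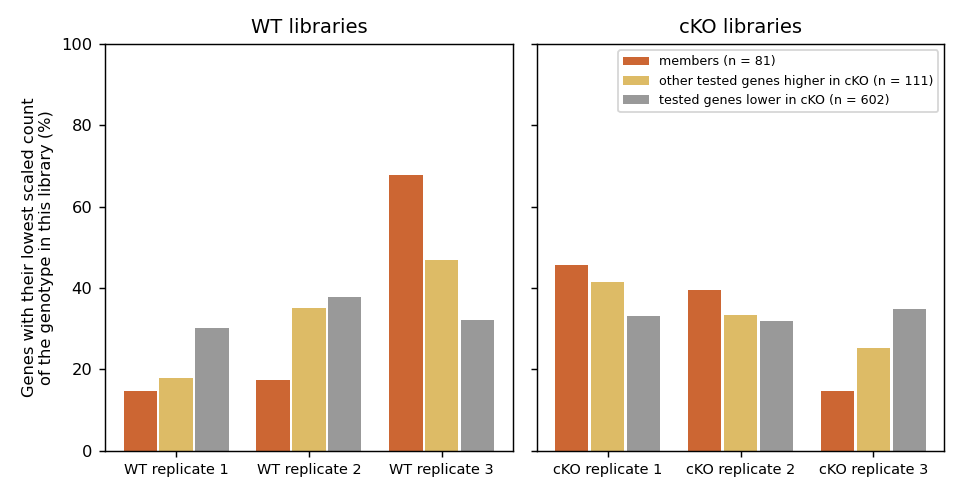
Share of genes whose lowest scaled count within a genotype fell in each library, for the 81 members (orange), 111 other tested genes higher in cKO (yellow) and 602 lower genes (grey). WT replicate 3 holds 67.9% of the members' lowest WT values, against 32.1% for the lower genes.

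The authors' deposited table gives its own log2 value and q-value for the same contrast, so these too are descriptions. The authors' deposited log2 values were positive for all 81 members but below the log2 ratio of mean counts in 75, with medians of 0.87 and 1.36. A q-value under 0.05 in the authors' deposited table was held by 43 of the 81 members and not by 38, 13 of them at 0.5 or above. Genes with such a q-value that were higher in cKO made up 12.5% of the 854. By the authors' deposited table the share under 0.05 was 53.1% of members, 52.0% of 123 other higher genes and 72.3% of 650 lower genes.

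The members with the smallest q-values in the authors' deposited table were Dntt (log2 2.28, q = 1.34e-26), Spag1 (1.33, 1.27e-25) and Vash1 (1.11, 1.00e-12). The gap was wide for Cd7, whose count ratio of 5.11 stands beside a log2 of 0.90 and a q of 0.540 in the authors' deposited table. For Timp2 the authors' deposited table gives 0.60 and q = 0.755, for Igfbp4 0.93 and 0.406, and for Mid1 0.48 and 0.768. Rflnb had the lowest value in the authors' deposited table, 0.28 with q = 0.891. The 6 members whose value in the authors' deposited table exceeded the count ratio were Gas7, Itgax, Sulf2, Adamts14, Pros1 and Spsb1, with q of 1.57e-05, 2.64e-05 and 1.36e-04 for Adamts14, Sulf2 and Itgax. Standard errors derived from the authors' deposited log2 and p-values had a median of 0.23 for the 43 members and 0.40 for the 38. The edgeR standard errors of the same sets had medians of 0.18 and 0.20.

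**Figure D5:**
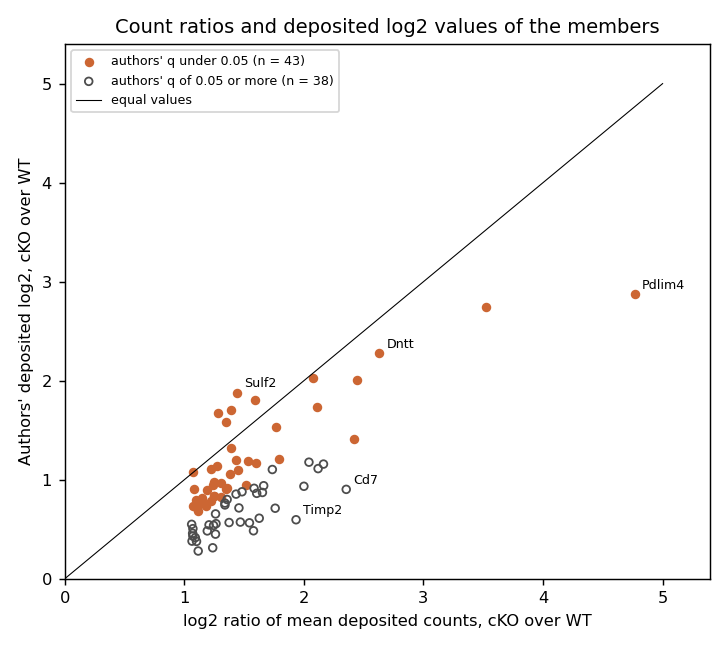
The authors' deposited log2 value (vertical) against the log2 ratio of mean deposited counts (horizontal) for the 81 members, filled where the authors' q-value is under 0.05 (43 genes) and open where it is not (38). Most points lie below the line of equal values, Cd7 and Timp2 far below it, while Sulf2 is among 6 above.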

How the data were processed

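Total RNA of 6 libraries (3 WT, 3 Themis cKO) was compared by the genotype in the labels. The authors deposited 1 table of 854 genes with an estimated count per gene and library. Per the file headers it also holds the authors' log2 fold change, p-value and q-value. The submitters' processing notes name the build GRCm38.p6 and RSEM 1.2.12, Bowtie2 2.2.5, DESeq2 1.4.5 and HISAT2 2.0.4, without role or order. The sources used here do not say how the genes of the table were picked. Of the 854, 650 were lower in cKO and 204 at least 2 times higher. With a cKO mean of at least 100, none had a ratio between 0.52 and 2.09. At that level the table thus lacks genes of smaller change, and absence from it is no sign of absent RNA. Library totals over all genes were not analysed here, so sequencing depth is unknown.

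Counts were rounded and fitted across the table with edgeR 4.0.16 in R 4.3.3 (quasi-likelihood F-test with no term besides genotype) for the 794 genes passing a smallest count of 10. P-values were adjusted by Benjamini-Hochberg over those 794. Libraries were scaled by median-of-ratios factors within each genotype (0.944 to 1.04) with both genotypes at equal depth, an assumption that the fold changes rest on. Standard errors were derived from the fold change and F statistic. Values per library, means, SD and ratios are of the deposited counts, unscaled. On simulated data for cKO against WT (790 genes) the test called 96.8% of 93 genes changed 2-fold, 100% of 90 changed 4-fold and 8 of 607 unchanged. The simulation gave all genes the same dispersion, left most unchanged and used the true scaling factors. In the real data spread differs between genes and relative depth is unknown, so these rates may not carry over.

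The members, the 20 gene lists and the roles were chosen with earlier results of these data known. Some listed genes are not reported here. Any of the 81 members may be named, with values per library for the first 15 by cKO count, the first 15 by ratio and others of well-known function. Also named are genes at the thresholds, Themis and listed genes in the table, while genes beside members were named after their positions were seen. Coordinates and promoter windows are from RefSeq on GRCm38.p6, matched by gene ID. Exon lengths are from GENCODE M21. Alternatives covered scaling, test (DESeq2 1.42.0), filter, replicate block and each library left out. Tables and plots were made with matplotlib 3.10.9, numpy 2.4.6 and pandas 2.3.3 in Python 3.11.15.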

Additional observations from a re-analysis of the deposited data

How the results depend on the processing

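All 81 members stayed above WT and past an adjusted p of 0.05 in each of the 12 alternative fits in edgeR or DESeq2, with a largest adjusted p of 0.00781. This stability follows in part from how the genes were chosen. The median log2 fold change of 1.35 became 2.64 with TMM and 2.65 with DESeq2 size factors, which centre a table of mostly lower genes on itself. These moved the median of all tested genes by 1.31 in both cases and changed the calls from 192 higher and 602 lower to 226 and 213, and to 224 and 211. With a library left out, the members' median was 1.31 to 1.39, and the rule picked 75 to 83 genes. Of the 81, 66 were picked in every such case. With scaled counts it picked 80. With the replicate number as a block, the replicate block fit called 81 members with a median of 1.35 and changed no member's call. Deviations of same-numbered libraries correlated at -0.033, -0.049 and -0.118 over 794 genes, and those of differently numbered libraries at -0.044 to 0.122. With 3 libraries per genotype these values cannot decide whether the numbers pair the samples. Leaving out cKO replicate 2 moved Cd163l1 by over 1.5 times, from a log2 fold change of 2.10 to 1.41. Members near 100 counts, and the WT values of Pdlim4, Nrgn and Pcsk1, rest on few reads.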
